A study of Mus musculus with 18 samples.

Results

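The change in gene expression between day 2 and day 4 of induced reprogramming was followed in mouse fibroblasts that carried either of 2 reprogramming cassettes. The members were 4 of the 18 arrays of the series, namely all mCherry+ arrays labelled day 4 or day 2: high-KLF4 day 4, high-KLF4 day 2, low-KLF4 day 4 and low-KLF4 day 2, with 1 array each. All 4 came from mouse embryonic fibroblasts (MEFs) that express the reverse tetracycline transactivator from ROSA and report Nanog with GFP. A piggyBac transposon brought in a doxycycline-responsive cassette of Oct4, Klf4, Myc and Sox2, either OK+9MS, with the longer Klf4 and called high-KLF4, or OKMS, called low-KLF4. The cassettes also express mCherry, and the cells were sorted for mCherry after 4 or 2 days in doxycycline at 1 µg/mL. Each day was compared within its cassette, so that day 4 minus day 2 was taken once in high-KLF4 cells and once in low-KLF4 cells. The labels do not say whether both day 4 samples came from 1 experiment, so an effect of the experiment and an effect of the day cannot be told apart. In sorted bulk cells, fewer cells of a type and less RNA per cell cannot be told apart either.

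Fibroblasts that receive the reprogramming factors go through a mesenchymal-to-epithelial transition (MET), in which they switch on cell-cell adhesion genes such as E-cadherin and later lose mesenchymal regulators. KLF4 is a regulator of epidermal differentiation genes as well as a reprogramming factor. Genes of the pluripotency network usually come on later than the first epithelial genes. Fibroblasts handling foreign nucleic acid can also run an interferon response, in which IRF and STAT factors turn on antiviral genes.

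Signals were RMA intensities on a linear scale, whose array medians lay between 151 and 156 on the 4 arrays, and all changes are differences of log2 signal. Correlations of log2 signals were 0.993 between day 4 and day 2 in high-KLF4 cells and 0.991 in low-KLF4 cells. Fibroblast markers were bright on each array: Col1a1, a chain of type I collagen, gave 5024 on day 4 and 3634 on day 2 in high-KLF4 cells, and 4178 on day 4 and 3048 on day 2 in low-KLF4 cells, while Vim, the mesenchymal intermediate filament, lay between 11958 and 12456. No member of the immune cell, neural, melanocyte, skeletal muscle or adipocyte and chondrocyte marker lists passed the test in either direction. The 4 cassette factor genes did not pass either. Among all 19938 genes read by 1 probe each, 116 were called higher and 105 lower. The probe of Pou5f1, which encodes OCT4, gave 7872 on day 4 and 8494 on day 2 in high-KLF4 cells, and 9013 on day 4 and 9348 on day 2 in low-KLF4 cells, a mean change of -0.08 (95% interval -0.32 to 0.16). Klf4 gave 658 on day 4 and 820 on day 2 in high-KLF4 cells, and 763 on day 4 and 1027 on day 2 in low-KLF4 cells (adjusted p = 0.185). Signals of these probes can come from the cassette and from the endogenous gene, and the 2 sources were not separated.

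Across the 23410 probes with a gene symbol, epithelial genes such as Cdh1, Epcam and Krt8, the pluripotency factor Sall4 and matrix genes such as Aspn and Postn were higher on day 4 in both cassettes. Irf7 and Usp18 of the interferon response, Inhba and Id3 of activin and BMP signalling, and Ankrd1, Has2 and Ccn2 were lower. In a limma fit with cassette as a block, 136 probes were higher on day 4 (0.581% of those tested) and 113 were lower (0.483%) at an adjusted p under 0.05, with 3240 at an unadjusted p under 0.05. The spread in this fit is the disagreement of the cassettes, with 1 residual degree of freedom, moderated towards the spread of all probes. Changes of at least 2-fold in both cassettes were reached by 51 probes that were higher (0.218%) and 27 that were lower (0.115%). Of these, 49 and 27 were also called. The other 2 moved by unequal amounts: Obox6 had changes of 3.13 in high-KLF4 cells and 1.08 in low-KLF4 cells (adjusted p = 0.101), and Them5 had changes of 1.34 and 3.51 (adjusted p = 0.0818).

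**Figure D1:**
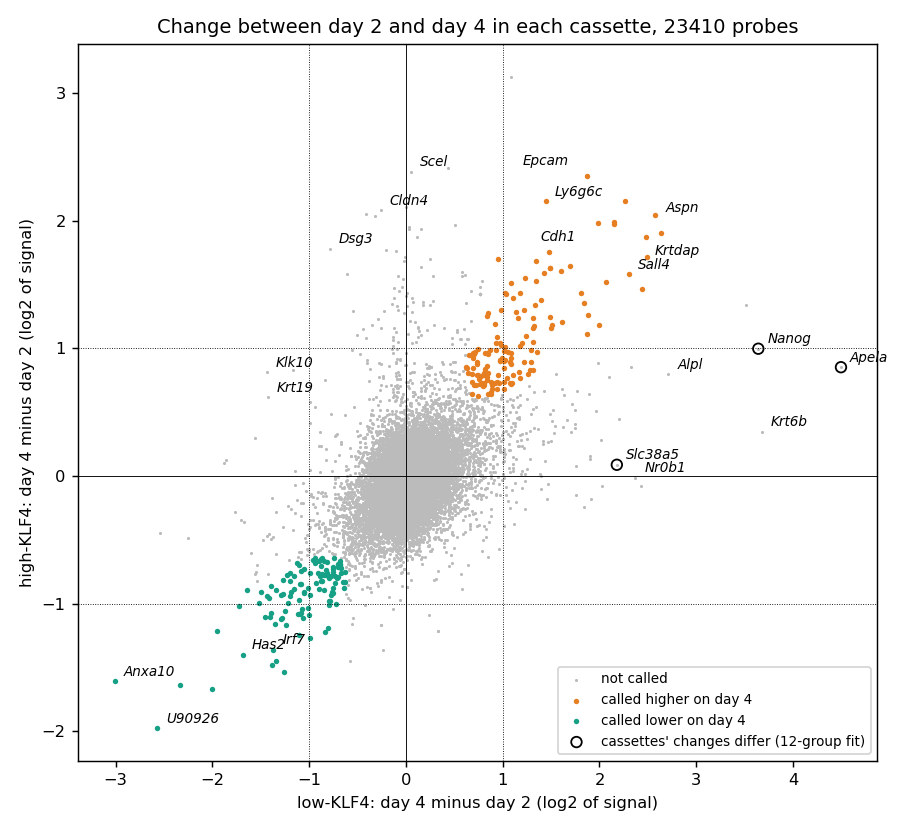
Change between day 2 and day 4 (log2 of signal) in low-KLF4 cells on the horizontal axis and in high-KLF4 cells on the vertical axis, 1 point per probe, with dotted lines at 2-fold. Coloured points are the 136 probes called higher and the 113 called lower on day 4, and the 3 circled points are those whose changes differed between the cassettes, all with the larger rise in low-KLF4 cells.

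Over all probes tested, the median change was -0.04 in high-KLF4 cells and 0.01 in low-KLF4 cells (SD over probes 0.26 and 0.29), and 13798 probes (58.9%) had the same sign in both. The smallest mean change among the called probes was 0.66 and their median was 0.97. Over all 23410 probes tested, both day 4 arrays lay above both day 2 arrays for 3530 and below them for 5083. The day 4 arrays lay clear of the day 2 arrays for 115 of the 136 probes called higher and for 102 of the 113 called lower. Calling probes on these same 4 arrays favours such a separation. For the rest, the difference between the cassettes was larger than the difference between the days. With the spread taken from all 18 arrays in 12 groups instead, 29 probes were higher and 17 lower, and 23 of these 46 were among the 249 called with the cassettes paired. Without the 4 day 8 arrays, whose pairs differ most, 476 were higher and 288 lower, and 209 of the 249 were among them.

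The epithelial genes that rose in both cassettes were 7 of adhesion and polarity, 2 keratins, 3 of the cornified envelope and barrier, and 2 transcription factors. Over these 4 lists of epithelial genes, 14 of 120 measured genes rose and 0 fell, against 116 that rose and 105 that fell among all 19938 genes read by 1 probe each. With the spread of all 18 arrays 4 of the 14 passed (Cdh1, Epcam, Krt8 and Krtdap), and without the day 8 arrays 13 did. Some cornified envelope genes outside these lists went the other way in the paired fit. Lce1h changed by -1.10 in high-KLF4 cells and -1.46 in low-KLF4 cells (adjusted p = 0.0169). A probe shared by Sprr2a1 and other Sprr2 genes changed by -1.22 in high-KLF4 cells and -0.84 in low-KLF4 cells (adjusted p = 0.0309). That probe was left out of the lists because it names several genes. Cdh1 encodes E-cadherin, the adhesion protein of adherens junctions. It gave signals of 2584 on day 4 and 653 on day 2 in high-KLF4 cells, and 439 on day 4 and 111 on day 2 in low-KLF4 cells. Its level was thus higher in high-KLF4 cells on both days, while its rise was the same size, 1.98 in high-KLF4 cells and 1.99 in low-KLF4 cells (mean 1.99, SE 0.10, adjusted p = 0.00666). Epcam, which encodes the epithelial cell adhesion molecule, gave 555 on day 4 and 109 on day 2 in high-KLF4 cells, and 227 on day 4 and 62.0 on day 2 in low-KLF4 cells. Both day 4 arrays lay above both day 2 arrays, and the mean rise was 4.32-fold (log2 change 2.11, SE 0.14, adjusted p = 0.0110).

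Spint1 and Spint2 encode membrane-bound inhibitors of epithelial serine proteases such as matriptase. Spint1 gave 1288 on day 4 and 323 on day 2 in high-KLF4 cells, and 681 on day 4 and 154 on day 2 in low-KLF4 cells (mean change 2.07, SE 0.10, adjusted p = 0.00666). Spint2 gave 1066 on day 4 and 469 on day 2 in high-KLF4 cells, and 637 on day 4 and 224 on day 2 in low-KLF4 cells (mean change 1.35, SE 0.12, adjusted p = 0.0148). Neither gene's arrays overlapped between the days. Ocln, a tight junction protein, gave 270 on day 4 and 103 on day 2 in high-KLF4 cells, and 157 on day 4 and 72.9 on day 2 in low-KLF4 cells (mean change 1.25, SE 0.11, adjusted p = 0.0151). Smaller rises were seen for Pkp1, a desmosome plaque protein (0.97 in high-KLF4 cells and 0.82 in low-KLF4 cells), and for Mal, a proteolipid of apical membranes (0.71 in high-KLF4 cells and 0.73 in low-KLF4 cells).

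Among the keratins, Krt8 and Krt17 rose and the other 16 measured did not pass. Krt8 pairs with type I keratins in simple epithelia. Its signal was 9479 on day 4 and 4168 on day 2 in high-KLF4 cells, and 1620 on day 4 and 406 on day 2 in low-KLF4 cells (mean change 1.59, SE 0.19, adjusted p = 0.0303). Krt17, a keratin of basal and wounded epidermis, gave 6101 on day 4 and 1881 on day 2 in high-KLF4 cells, and 174 on day 4 and 90.1 on day 2 in low-KLF4 cells (mean change 1.32, SE 0.18, adjusted p = 0.0376). For Krt17 the low-KLF4 arrays of both days lay far below the high-KLF4 arrays of both days, so the shared direction sat on very different levels.

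Regulators and late differentiation genes of the epidermis were among the 14 too. Grhl3, a grainyhead-like transcription factor of the skin barrier, gave 633 on day 4 and 279 on day 2 in high-KLF4 cells, and 394 on day 4 and 157 on day 2 in low-KLF4 cells (mean change 1.25, SE 0.10, adjusted p = 0.0143). Ehf, an ETS factor of epithelia, gave 1276 on day 4 and 571 on day 2 in high-KLF4 cells, and 388 on day 4 and 156 on day 2 in low-KLF4 cells (mean change 1.24, SE 0.10, adjusted p = 0.0143). Krtdap, a secreted product of differentiating keratinocytes, had the largest mean change of the 14 at 2.17 (SE 0.16, adjusted p = 0.0110). It is also a case in which the cassettes reached like levels, with 1157 on day 4 and 316 on day 2 in high-KLF4 cells, and 1038 on day 4 and 186 on day 2 in low-KLF4 cells. Tgm3, a transglutaminase of the cornified envelope, changed by 1.34 in each cassette, and Cdsn, the corneodesmosome protein, by 0.84 in high-KLF4 cells and 0.70 in low-KLF4 cells.

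**Figure D2:**
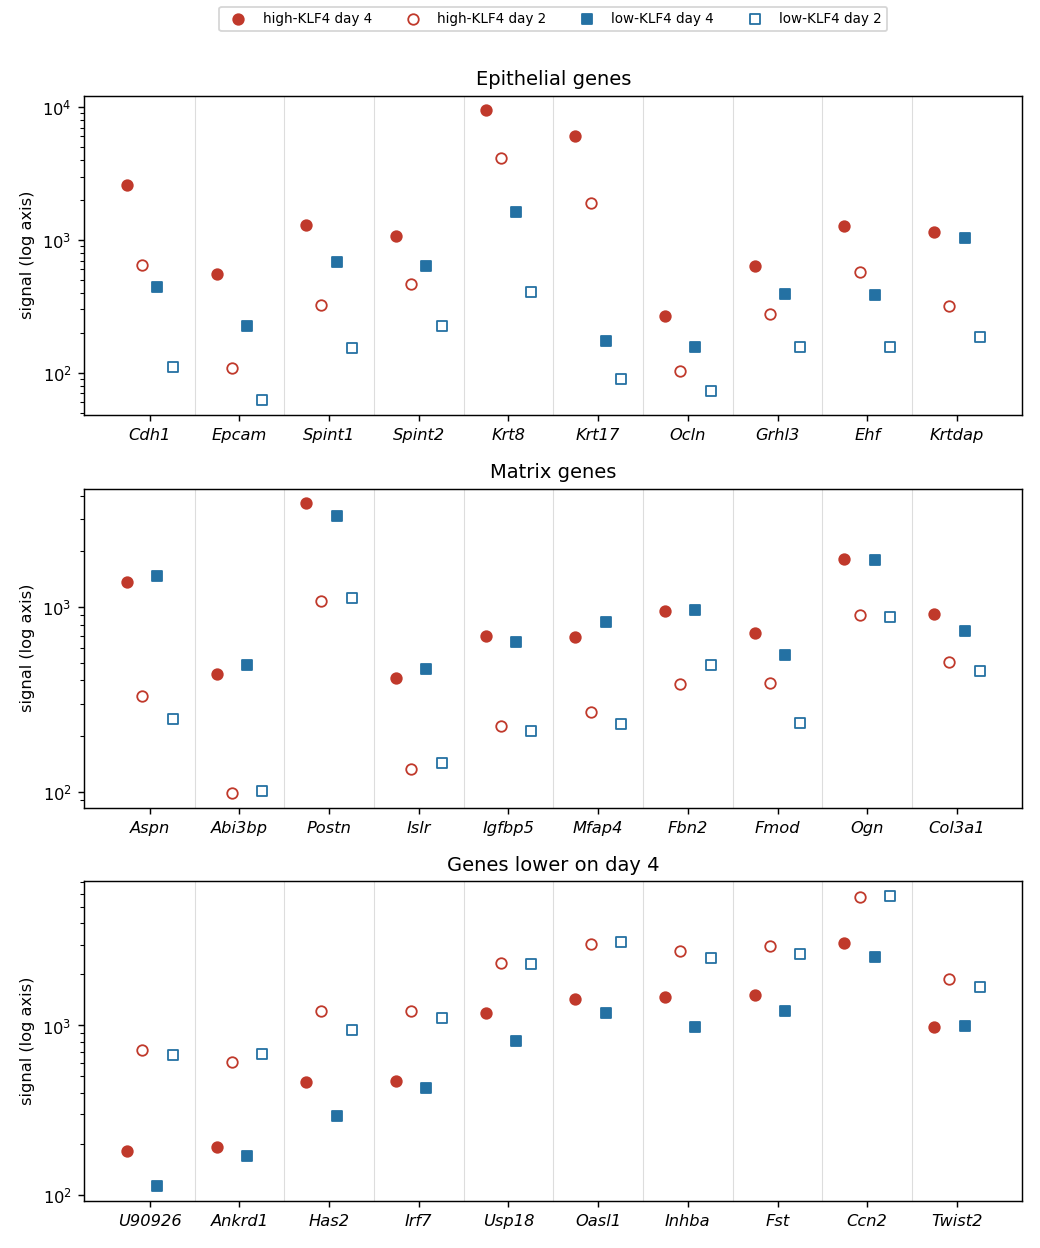
Signal on each of the 4 arrays (log axis) for 10 epithelial genes, 10 matrix genes and 10 genes that were lower on day 4, with high-KLF4 in red circles, low-KLF4 in blue squares, day 4 filled and day 2 open. Most of the matrix genes and lower genes have like levels in the cassettes, whereas Krt8 and Krt17 are far brighter in high-KLF4 cells on both days.

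Most of the 120 epithelial genes did not pass, and as a description their changes were larger in high-KLF4 cells. The median change over the 120 was 0.40 in high-KLF4 cells and -0.02 in low-KLF4 cells, against -0.05 and 0.01 over the 19938 genes read by 1 probe each. At least 2-fold higher on day 4 were 33 of the 120 in high-KLF4 cells and 12 in low-KLF4 cells. Over all 23410 probes tested, 163 were so in high-KLF4 cells and 204 in low-KLF4 cells. The change was larger in high-KLF4 cells for 90 of the 120, and the day 2 signal was already higher in high-KLF4 cells for 100 of the 120. Neither of these counts was taken over all genes. Trp63, the master factor of the basal epidermis, lay between 104 and 110 on all 4 arrays, and Krt5, its usual companion keratin, between 122 and 155. Cldn1 had values of 163 on day 4 and 231 on day 2 in high-KLF4 cells, and 131 on day 4 and 181 on day 2 in low-KLF4 cells (adjusted p = 0.101), so not each tight junction gene had a higher signal on day 4.

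Promoter sequences are shown for 4 of the 14 epithelial genes because the E-box CAGGTG, read as CACCTG on the other strand, is the element through which the ZEB and SNAIL repressors are known to act on epithelial genes. The E-box was in the 250 bases before the RefSeq start of 5 of the 10 that have a window (Cdsn, Epcam, Grhl3, Krt8 and Spint2). It was in 4620 of the 27025 windows of all genes (17.1%), in 16 of 85 windows of genes called higher (18.8%) and in 11 of 82 of genes called lower (13.4%). These letters describe the windows and do not show binding. Each sequence runs 5′ to 3′ on the strand of its gene and ends at the base before the start, in GRCm38.p6, with the E-boxes in capitals. The Epcam window is chr17:87635729-87635978 on the plus strand, with E-boxes that begin 187 and 19 bases before the start. The Spint2 window is chr7:29281978-29282227 on the minus strand, with E-boxes that begin at 74, 55 and 9. The Grhl3 window is chr4:135573633-135573882 on the minus strand with its E-box at 19, and the Krt8 window is chr15:102004343-102004592 on the minus strand with its E-box at 111.
Epcam: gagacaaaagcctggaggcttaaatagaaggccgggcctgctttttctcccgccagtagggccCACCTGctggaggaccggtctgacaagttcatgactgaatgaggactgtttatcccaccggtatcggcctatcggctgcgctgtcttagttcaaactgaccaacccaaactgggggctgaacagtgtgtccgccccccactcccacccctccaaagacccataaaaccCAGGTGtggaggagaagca
Spint2: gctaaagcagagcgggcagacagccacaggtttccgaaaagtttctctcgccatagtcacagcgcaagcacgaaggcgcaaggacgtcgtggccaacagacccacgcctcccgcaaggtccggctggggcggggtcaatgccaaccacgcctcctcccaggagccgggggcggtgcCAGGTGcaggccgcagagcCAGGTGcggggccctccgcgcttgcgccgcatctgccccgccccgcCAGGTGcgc
Grhl3: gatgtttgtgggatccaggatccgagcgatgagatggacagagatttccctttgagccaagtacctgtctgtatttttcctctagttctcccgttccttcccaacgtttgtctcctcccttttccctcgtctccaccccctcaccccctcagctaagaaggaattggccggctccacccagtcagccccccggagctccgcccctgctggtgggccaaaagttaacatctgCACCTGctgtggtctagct
Krt8: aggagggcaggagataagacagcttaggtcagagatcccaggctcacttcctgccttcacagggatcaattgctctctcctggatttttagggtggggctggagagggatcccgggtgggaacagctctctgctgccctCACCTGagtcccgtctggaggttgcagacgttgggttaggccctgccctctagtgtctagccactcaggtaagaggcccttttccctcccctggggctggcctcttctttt

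The repressors themselves were expressed on both days. Zeb1 gave 1269 on day 4 and 1225 on day 2 in high-KLF4 cells, and 1159 on day 4 and 1134 on day 2 in low-KLF4 cells (adjusted p = 0.924). Snai1 gave 683 on day 4 and 1033 on day 2 in high-KLF4 cells, and 652 on day 4 and 1010 on day 2 in low-KLF4 cells, lower in both but not past the threshold (mean change -0.61, adjusted p = 0.0567). The test called 116 genes higher and 105 lower among all 19938 genes read by 1 probe each. Of the 34 mesenchymal transcription factors measured, Twist2 alone passed. It gave 981 on day 4 and 1871 on day 2 in high-KLF4 cells, and 987 on day 4 and 1687 on day 2 in low-KLF4 cells, with no overlap between the days (mean change -0.85, SE 0.10, adjusted p = 0.0309). Its relative Twist1 changed by -0.17 in high-KLF4 cells and -0.21 in low-KLF4 cells (adjusted p = 0.473).

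Some matrix genes of fibroblasts rose as well. In the list of 38 mesenchymal and matrix genes, 3 rose and 1 fell, and the medians were 0.08 in high-KLF4 cells and 0.04 in low-KLF4 cells. Across all called probes, 20 genes of secreted matrix proteins and their partners were picked out after their values had been seen, and their changes ranged from 0.71 to 2.16 in high-KLF4 cells and from 0.71 to 2.57 in low-KLF4 cells. Aspn, a small leucine-rich proteoglycan, gave 1361 on day 4 and 330 on day 2 in high-KLF4 cells, and 1473 on day 4 and 247 on day 2 in low-KLF4 cells (mean change 2.31, SE 0.15, adjusted p = 0.0110). Postn, or periostin, gave 3655 on day 4 and 1082 on day 2 in high-KLF4 cells, and 3109 on day 4 and 1112 on day 2 in low-KLF4 cells (mean change 1.62, SE 0.11, adjusted p = 0.0110). Abi3bp, a collagen-associated protein, gave 436 on day 4 and 97.8 on day 2 in high-KLF4 cells, and 484 on day 4 and 101 on day 2 in low-KLF4 cells (mean change 2.21, SE 0.10, adjusted p = 0.00666). For all 3 genes the cassettes had near-equal signals on each day. Islr, Igfbp5, Mfap4, Fbn2, Fmod and Ogn rose by 1.02 to 1.67 on average. Col3a1, a fibrillar collagen chain, rose less, with 922 on day 4 and 501 on day 2 in high-KLF4 cells, and 744 on day 4 and 449 on day 2 in low-KLF4 cells (adjusted p = 0.0328).

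The matrix genes also differed between the paired arrays of day 8. Of the 20, all 20 were at least 2-fold lower on array 2 than on array 1 of day 8 in both cassettes, the median gap being -2.09 in high-KLF4 cells and -2.11 in low-KLF4 cells. Aspn, for instance, had day 8 signals of 2941 and 513 in high-KLF4 cells and 2913 and 688 in low-KLF4 cells. A gap of 2-fold in the same direction in both day 8 pairs was found for 64 of the 136 probes called higher (47.1%), 22 of the 113 called lower (19.5%) and 3 of the 14 epithelial genes, against 610 of all probes tested (2.61%). With the spread of all 18 arrays, 0 of the 20 matrix genes passed, and without the day 8 arrays 18 passed. Whether samples of days 2 and 4 differ in the same way as the day 8 pairs was not tested, since each had 1 array per cassette.

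Genes of other roles rose with the epithelial genes. Sall4, a zinc finger factor of the pluripotency network, gave 645 on day 4 and 215 on day 2 in high-KLF4 cells, and 795 on day 4 and 161 on day 2 in low-KLF4 cells (mean change 1.94, SE 0.18, adjusted p = 0.0151). Of 40 measured pluripotency genes, Sall4 alone was called. Plet1, a surface protein of placental and skin progenitors, gave 1626 on day 4 and 568 on day 2 in high-KLF4 cells, and 827 on day 4 and 197 on day 2 in low-KLF4 cells (mean change 1.79, SE 0.15, adjusted p = 0.0143). Both have roles in cells of early development. Atp2a3, a calcium pump of the endoplasmic reticulum, gave 1292 on day 4 and 345 on day 2 in high-KLF4 cells, and 521 on day 4 and 84.0 on day 2 in low-KLF4 cells (mean change 2.27, SE 0.18, adjusted p = 0.0133). All of these genes kept their day 4 arrays above their day 2 arrays. Aldh1a1, a retinaldehyde dehydrogenase, had 678 on day 4 and 206 on day 2 in high-KLF4 cells, and 898 on day 4 and 159 on day 2 in low-KLF4 cells (mean change 2.11, SE 0.19, adjusted p = 0.0148). Penk, the opioid peptide precursor proenkephalin, reached 5726 on day 4 against 1460 on day 2 in high-KLF4 cells and 5256 on day 4 against 1184 on day 2 in low-KLF4 cells (mean change 2.06, SE 0.11, adjusted p = 0.00666). Of these, Sall4, Atp2a3 and Aldh1a1 were also called with the spread of all 18 arrays, whereas Penk had day 8 signals of 9521 and 889 in high-KLF4 cells and of 8294 and 956 in low-KLF4 cells and was not.

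Genes that act on chromatin and imprinting moved less. Tet2, which oxidises methylated cytosine, was the only called gene of 24 measured chromatin genes, with 1354 on day 4 and 782 on day 2 in high-KLF4 cells, and 711 on day 4 and 406 on day 2 in low-KLF4 cells (mean change 0.80, adjusted p = 0.0312). Of 13 measured genes in a list of imprinted genes and Xist, the neighbours Peg3 and Zim1 rose. By the same test 116 of all 19938 genes read by 1 probe each were called higher. Peg3 gave 1118 on day 4 and 629 on day 2 in high-KLF4 cells, and 1378 on day 4 and 555 on day 2 in low-KLF4 cells (mean change 1.07, SE 0.14, adjusted p = 0.0335), and Zim1 changed by 0.76 in high-KLF4 cells and 0.84 in low-KLF4 cells (adjusted p = 0.0314). Fos, an immediate early gene, and Aldoc, a brain-type aldolase of glycolysis, were the only called genes of their lists, with mean changes of 0.81 and 0.91.

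A minority of the interferon response genes passed the test, all of them lower on day 4. Of 41 measured, 5 fell and 0 rose, with 105 that fell among all 19938 genes, and the median change was -0.34 in high-KLF4 cells and -0.47 in low-KLF4 cells. A lower signal on day 4 in each cassette was found for 34 of the 41, against 34.1% of all genes read by 1 probe. Irf7, the transcription factor that amplifies the interferon response, gave 471 on day 4 and 1211 on day 2 in high-KLF4 cells, and 427 on day 4 and 1105 on day 2 in low-KLF4 cells. These 4 values put the day 4 arrays well below the day 2 arrays in both cassettes, by 2.58-fold on average (log2 change -1.37, SE 0.10, adjusted p = 0.0110). With the spread of all 18 arrays 0 of the 5 passed (Irf7 adjusted p = 0.640), and without the day 8 arrays 4 did. Usp18, a protease that removes ISG15, gave 1177 on day 4 and 2349 on day 2 in high-KLF4 cells, and 810 on day 4 and 2315 on day 2 in low-KLF4 cells (mean change -1.26, SE 0.14, adjusted p = 0.0259). Oasl1 and Oas2, of the oligoadenylate synthetase family, had mean changes of -1.23 (adjusted p = 0.0169) and -0.89 (adjusted p = 0.0250). Not each antiviral gene was lower in both cassettes: Ifit1 had 2479 on day 4 and 2267 on day 2 in high-KLF4 cells, and 2061 on day 4 and 2574 on day 2 in low-KLF4 cells (adjusted p = 0.850).

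Cxcl10 encodes an interferon-induced chemokine. It gave 3875 on day 4 and 6748 on day 2 in high-KLF4 cells, and 4657 on day 4 and 8064 on day 2 in low-KLF4 cells (mean change -0.80, SE 0.10, adjusted p = 0.0312). Its promoter window is shown because it alone, of 3 called interferon genes with a window, holds GAAANNGAA, the core of the interferon-stimulated response element, which reads TTCNNTTTC on the other strand. That motif was in 13 of 28 windows of the measured interferon genes (46.4%) and in 1934 of the 27025 windows of all genes (7.16%). The window is chr5:92348890-92349139 on the minus strand of GRCm38.p6, from RefSeq, and the match, in capitals, begins 213 bases before the start.
Cxcl10: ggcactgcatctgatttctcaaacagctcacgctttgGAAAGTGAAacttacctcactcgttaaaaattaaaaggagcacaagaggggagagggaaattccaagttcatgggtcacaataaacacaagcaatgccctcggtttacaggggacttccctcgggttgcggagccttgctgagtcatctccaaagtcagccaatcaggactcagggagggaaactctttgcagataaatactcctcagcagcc

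In the TGF-beta and BMP list, 4 of 31 measured genes fell and 0 rose, with medians near 0 (-0.13 in high-KLF4 cells, -0.04 in low-KLF4 cells) and 105 of all 19938 genes falling. With the spread of all 18 arrays 0 of the 4 passed (Inhba adjusted p = 0.963), and without the day 8 arrays 2 did. Inhba encodes the activin A subunit and Fst its secreted antagonist. Inhba gave 1482 on day 4 and 2756 on day 2 in high-KLF4 cells, and 981 on day 4 and 2497 on day 2 in low-KLF4 cells (mean change -1.12, SE 0.14, adjusted p = 0.0299). Fst gave 1505 on day 4 and 2954 on day 2 in high-KLF4 cells, and 1224 on day 4 and 2638 on day 2 in low-KLF4 cells (mean change -1.04, SE 0.10, adjusted p = 0.0178). The ligand subunit and its antagonist thus fell by like amounts. Id1 and Id3, targets of BMP signalling that block bHLH factors, fell too. Id3 gave 324 on day 4 and 616 on day 2 in high-KLF4 cells, and 229 on day 4 and 562 on day 2 in low-KLF4 cells (mean change -1.11, SE 0.12, adjusted p = 0.0241), and Id1 changed by -0.98 on average (adjusted p = 0.0366). Tgfb1 itself had 683 on day 4 and 1147 on day 2 in high-KLF4 cells, and 559 on day 4 and 859 on day 2 in low-KLF4 cells, just outside the threshold (adjusted p = 0.0503).

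Large falls outside these pathways included Ankrd1, Ccn2 and Has2. Ankrd1, a muscle ankyrin-repeat protein and known YAP target, gave 193 on day 4 and 613 on day 2 in high-KLF4 cells, and 169 on day 4 and 678 on day 2 in low-KLF4 cells (mean change -1.84, SE 0.12, adjusted p = 0.0110). Ccn2, the connective tissue growth factor and another YAP target, gave 3061 on day 4 and 5737 on day 2 in high-KLF4 cells, and 2548 on day 4 and 5807 on day 2 in low-KLF4 cells (mean change -1.05, SE 0.11, adjusted p = 0.0226). Both genes had near-equal levels in the cassettes on day 2. Has2, a hyaluronan synthase, gave 463 on day 4 and 1220 on day 2 in high-KLF4 cells, and 292 on day 4 and 941 on day 2 in low-KLF4 cells (mean change -1.54, SE 0.12, adjusted p = 0.0112). With the spread of all 18 arrays none of Ankrd1, Ccn2 and Has2 passed, and without the day 8 arrays each did. Has2 had day 8 signals of 724 and 258 in high-KLF4 cells and of 1339 and 253 in low-KLF4 cells. Serpinb2 and Plau, an inhibitor of plasminogen activators and the urokinase it inhibits, fell by 1.59 and 1.10 on the log2 scale. Zyx and Fhl2, proteins of focal adhesions and actin fibres, changed by -0.74 and -0.67 in high-KLF4 cells and by -0.83 and -0.82 in low-KLF4 cells. The cytokines Ccl2 and Csf1 had mean changes of -0.82 and -0.74. The smooth muscle contractile list, with 18 measured genes, had 0 calls, against 116 higher and 105 lower among all 19938 genes read by 1 probe each. A lower signal on day 4 in both cassettes was found for 12 of the 18, against 34.1% of all these genes. The medians of the list were -0.11 (high-KLF4) and -0.35 (low-KLF4). Tagln, or transgelin, gave 2054 on day 4 and 2557 on day 2 in high-KLF4 cells, and 1758 on day 4 and 2806 on day 2 in low-KLF4 cells (adjusted p = 0.154), while Acta2, smooth muscle actin, lay between 8425 and 9131 on all 4 arrays.

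The 3 largest mean falls were those of Anxa10, U90926 and Akr1c18. Anxa10, of the annexin family, gave 335 on day 4 and 1019 on day 2 in high-KLF4 cells, and 188 on day 4 and 1514 on day 2 in low-KLF4 cells (mean change -2.31, SE 0.30, adjusted p = 0.0339). The fall was 3.04-fold in high-KLF4 cells and 8.06-fold in low-KLF4 cells, a difference of 1.41 with an adjusted p of 1.00 in the fit over 12 groups and of 0.0463 in that fit without the day 8 arrays. U90926 gave 182 on day 4 and 717 on day 2 in high-KLF4 cells, and 112 on day 4 and 667 on day 2 in low-KLF4 cells (mean change -2.27, SE 0.16, adjusted p = 0.0110). Akr1c18, a hydroxysteroid dehydrogenase that inactivates progesterone, changed by -1.99 on average (SE 0.17, adjusted p = 0.0146). All 3 were also called with the spread of all 18 arrays.

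Changes that differed between the cassettes were few when tested. The test of the difference itself, high-KLF4 change minus low-KLF4 change in the fit over 12 groups, was passed by 3 of 23410 probes (0.0128%), with 569 at an unadjusted p under 0.05. All 3 had a change of at least 2-fold in low-KLF4 cells and under 2-fold in high-KLF4 cells. In a fit of the 10 mCherry+ arrays alone, 0 passed (adjusted p = 1.00 for each). Nanog, a homeobox factor at the centre of the pluripotency network, gave 188 on day 4 and 94.2 on day 2 in high-KLF4 cells, and 992 on day 4 and 79.5 on day 2 in low-KLF4 cells. The low-KLF4 day 4 array thus stood apart from the other 3, with a 12.5-fold change there, and the difference of the changes was -2.64 (SE 0.20, adjusted p = 0.0180). The MEFs carry a Nanog-GFP reporter, whose part in the Nanog signal was not tested. Apela, which encodes a peptide ligand of the apelin receptor made by pluripotent cells, gave 994 on day 4 and 551 on day 2 in high-KLF4 cells, and 2116 on day 4 and 93.8 on day 2 in low-KLF4 cells (difference -3.64, SE 0.32, adjusted p = 0.0258). Here the cassettes differed in opposite ways on the days, with high-KLF4 cells higher on day 2 and lower on day 4. Slc38a5, a glutamine transporter, gave 90.0 on day 4 and 84.6 on day 2 in high-KLF4 cells, and 434 on day 4 and 95.8 on day 2 in low-KLF4 cells (difference -2.09, SE 0.19, adjusted p = 0.0258).

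The Nanog promoter is shown because OCT4 and SOX2 are known to bind it together, at an octamer site next to a SOX site. In its window, chr6:122707239-122707488 on the plus strand of GRCm38.p6, from RefSeq, TTTGCAT begins 75 bases before the start and ACAATG begins 67 bases before it, both in capitals. Both strands of all windows were searched, the reverse complements being ATGCAAA for the octamer and CATTGT for SOX. They do not overlap. Of the 27025 windows of all genes, 1096 hold these octamer letters and 2969 hold the SOX letters.
Nanog: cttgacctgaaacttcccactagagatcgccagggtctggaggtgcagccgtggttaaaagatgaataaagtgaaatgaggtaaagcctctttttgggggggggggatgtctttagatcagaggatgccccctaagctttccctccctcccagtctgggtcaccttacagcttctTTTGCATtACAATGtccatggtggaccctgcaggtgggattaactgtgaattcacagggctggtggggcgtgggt

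Without the 4 day 8 arrays, 58 probes (0.248%) passed the test of the difference, 32 of them with the more positive change in high-KLF4 cells and 26 with the more positive change in low-KLF4 cells. Most of the genes named from these 58 were chosen after their values had been seen. Among the 26 were Nanog, Apela, Slc38a5, Nr0b1, a nuclear receptor of the pluripotency network, Alpl, the alkaline phosphatase used to stain pluripotent colonies, Krt6b and Lama1. Nr0b1 gave 91.0 on day 4 and 91.8 on day 2 in high-KLF4 cells, and 2233 on day 4 and 432 on day 2 in low-KLF4 cells (adjusted p = 0.118 with all arrays and 0.0338 without day 8). Alpl gave 622 on day 4 and 358 on day 2 in high-KLF4 cells, and 2059 on day 4 and 314 on day 2 in low-KLF4 cells (adjusted p = 1.00 and 0.0496). Of the 40 measured pluripotency genes, 1 had a day 4 signal at least 2-fold above day 2 in high-KLF4 cells and 9 had so in low-KLF4 cells, among them Fgf4 (0.67 in high-KLF4 cells, 1.77 in low-KLF4 cells) and Fut9 (0.14 in high-KLF4 cells, 1.28 in low-KLF4 cells), whose differences were not past the threshold. A rise of that size was seen for 163 of all 23410 probes tested in high-KLF4 cells and for 204 in low-KLF4 cells. Esrrb lay between 93.0 and 109, Zfp42 between 50.4 and 63.2 and Tdgf1 between 68.4 and 76.3. Krt6b, a keratin of stressed epidermis, gave 5808 on day 4 and 4564 on day 2 in high-KLF4 cells, and 2576 on day 4 and 202 on day 2 in low-KLF4 cells (adjusted p = 0.118 and 0.0366). Its near-identical copy Krt6a had the other pattern, 1919 on day 4 and 598 on day 2 in high-KLF4 cells, and 64.3 on day 4 and 65.3 on day 2 in low-KLF4 cells, and how well the probes separate the copies was not tested.

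Junction and barrier genes were among those with the larger change in high-KLF4 cells. None of those named here passed the test of the difference over all 18 arrays, so they are given by size. Cldn4, a tight junction claudin, gave 2308 on day 4 and 544 on day 2 in high-KLF4 cells, and 269 on day 4 and 322 on day 2 in low-KLF4 cells (adjusted p for the difference 1.00, and 0.0255 without day 8). Dsg3, a desmosomal cadherin of the epidermis, gave 421 on day 4 and 122 on day 2 in high-KLF4 cells, and 36.6 on day 4 and 63.0 on day 2 in low-KLF4 cells (adjusted p = 1.00 and 0.0135). Sult2b1, a cholesterol sulfotransferase of the skin barrier, gave 1259 on day 4 and 303 on day 2 in high-KLF4 cells, and 131 on day 4 and 175 on day 2 in low-KLF4 cells (adjusted p = 1.00 and 0.00927). In each of these the high-KLF4 day 4 array was the highest of the 4 and low-KLF4 cells had a lower signal on day 4 than on day 2. Cldn6 (651 on day 4 and 151 on day 2 in high-KLF4 cells, and 133 on both days in low-KLF4 cells) and Slurp1, a secreted skin protein (2253 on day 4 and 662 on day 2 in high-KLF4 cells, and 130 on day 4 and 139 on day 2 in low-KLF4 cells), were flat in low-KLF4 cells. Krt14, the keratin of basal epidermis, gave 4319 on day 4 and 1709 on day 2 in high-KLF4 cells, and 128 on day 4 and 113 on day 2 in low-KLF4 cells. Its difference did not pass without day 8 either (adjusted p = 0.0897).

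Some genes had a lower signal on day 4 in low-KLF4 cells but not in high-KLF4 cells, and again epidermal genes were among them. Sprr1a, a cornified envelope precursor, gave 2134 on day 4 and 1991 on day 2 in high-KLF4 cells, and 222 on day 4 and 818 on day 2 in low-KLF4 cells. Its difference of 1.98 did not pass with all arrays, nor without day 8 (adjusted p = 0.0925). Krt19, a keratin of simple and ductal epithelia, gave 4810 on day 4 and 3133 on day 2 in high-KLF4 cells, and 784 on day 4 and 2108 on day 2 in low-KLF4 cells (difference 2.05, adjusted p = 0.0739, and 0.0225 without day 8). Klk10, a secreted protease of the kallikrein family, had 4395 on day 4 and 2497 on day 2 in high-KLF4 cells, and 240 on day 4 and 650 on day 2 in low-KLF4 cells (difference 2.25, adjusted p = 0.364, and 0.0463 without day 8). Krt19 and Klk10 had opposite signs in the cassettes.

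Counted by size with no test, 51 probes had a day 4 signal at least 2-fold above day 2 in high-KLF4 cells and within 1.2-fold in low-KLF4 cells, and 54 were so in low-KLF4 cells and within 1.2-fold in high-KLF4 cells. Lower by that rule were 3 probes in high-KLF4 cells alone and 12 in low-KLF4 cells alone. Each of these rests on 1 array per cassette and day.

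**Figure D3:**
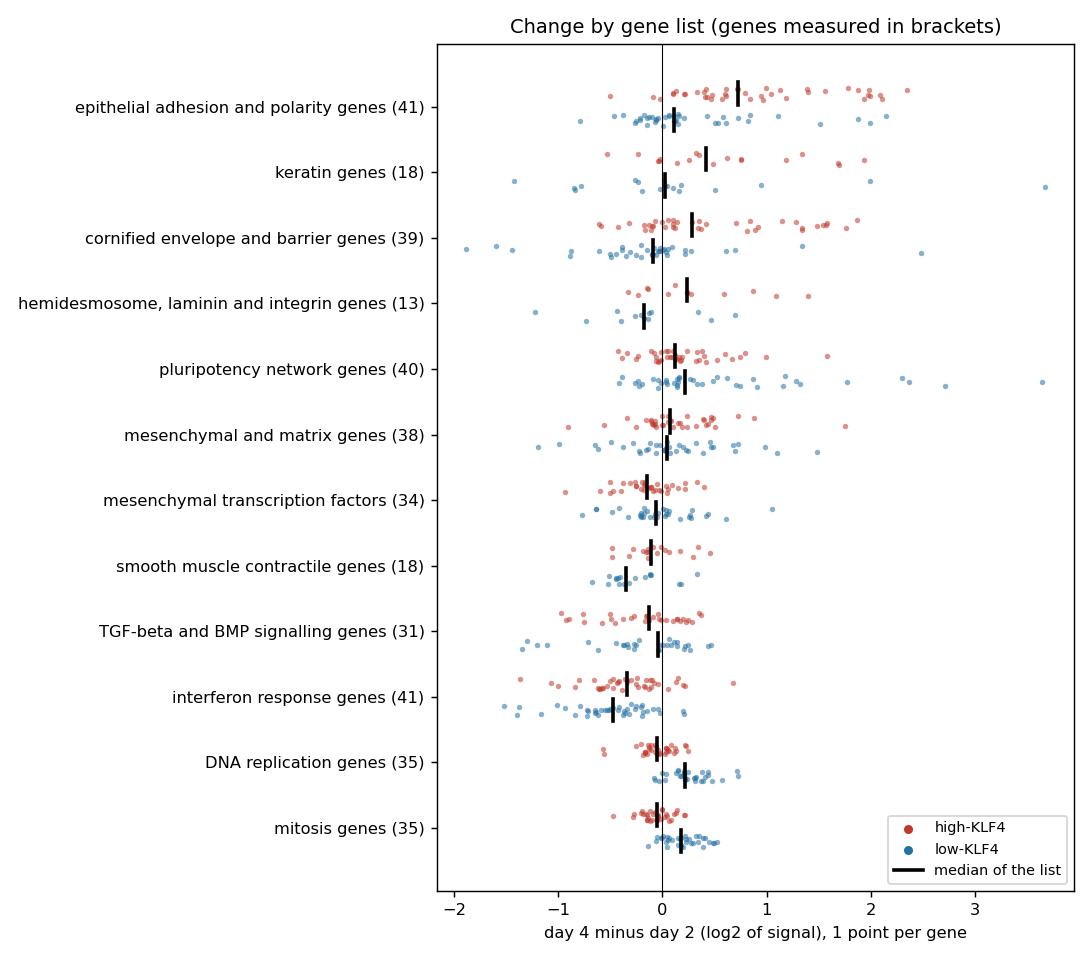
Change between day 2 and day 4 (log2 of signal, horizontal axis) for the measured genes of 12 lists, 1 point per gene, high-KLF4 in red above low-KLF4 in blue, with a black bar at each median. The interferon medians lie below 0 in both cassettes (-0.34 in high-KLF4 cells and -0.47 in low-KLF4 cells), and the median of epithelial adhesion and polarity genes is 0.72 in high-KLF4 cells and 0.11 in low-KLF4 cells.

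Growth and metabolism genes did not pass in most lists. Of 35 DNA replication genes and 35 mitosis genes, 0 passed in either direction, as was so for the p53, MYC target, sterol synthesis and unfolded protein response lists. Among all 19938 genes read by 1 probe each, 116 were called higher and 105 lower. At that share a list of this size can hold 0 calls without differing from other genes. Probes shared by Top2a, a mitosis gene read here by another probe, and Hibadh were called lower (mean changes -1.20 and -1.06). The replication median was -0.05 in high-KLF4 cells and 0.22 in low-KLF4 cells, and the mitosis median was -0.05 in high-KLF4 cells and 0.18 in low-KLF4 cells. The change was larger in high-KLF4 cells for 3 of the 35 replication genes and 2 of the 35 mitosis genes. Mcm2, a subunit of the replicative helicase, gave 1374 on day 4 and 1340 on day 2 in high-KLF4 cells, and 2064 on day 4 and 1649 on day 2 in low-KLF4 cells (adjusted p = 0.571). The hemidesmosome, laminin and integrin list had 0 calls among 13 genes. Among trophoblast markers Plet1 was the only call of 13, and among endothelial markers Emcn was the only call of 12, with signals of 58.7 on day 4 and 134 on day 2 in high-KLF4 cells and 70.6 on day 4 and 124 on day 2 in low-KLF4 cells.

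The later arrays were also read for probes that moved in both cassettes. Choosing probes on the day 2 and day 4 arrays in itself favours later values between the day 2 and day 4 levels. The same counts were not taken over all probes. Of the 46 probes with 1 symbol that were called and at least 2-fold higher in both cassettes, 45 were still above day 2 in the mean of the day 8 arrays of each cassette. In mESCs, 33 of the 46 were at least 2-fold below their day 4 level, and in keratinocytes 27 were. Cdh1 and Epcam were not among those that dropped, with Cdh1 at 3257 and 3230 in mESCs and 6949 and 6667 in keratinocytes. Sall4 reached 3419 and 3967 in mESCs but 119 and 115 in keratinocytes. Atp2a3 had 198 and 193 in mESCs and 81.1 and 71.9 in keratinocytes, all below its day 4 levels. In the mean of the day 8 arrays of each cassette, the 24 probes called and at least 2-fold lower in both cassettes were all still below day 2. Irf7 had 452 and 587 on day 8 in high-KLF4 cells and 761 and 227 in low-KLF4 cells. Single arrays could lie above: Has2 in low-KLF4 cells had 1339 and 253 on day 8, against 941 on day 2.

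**Figure D4:**
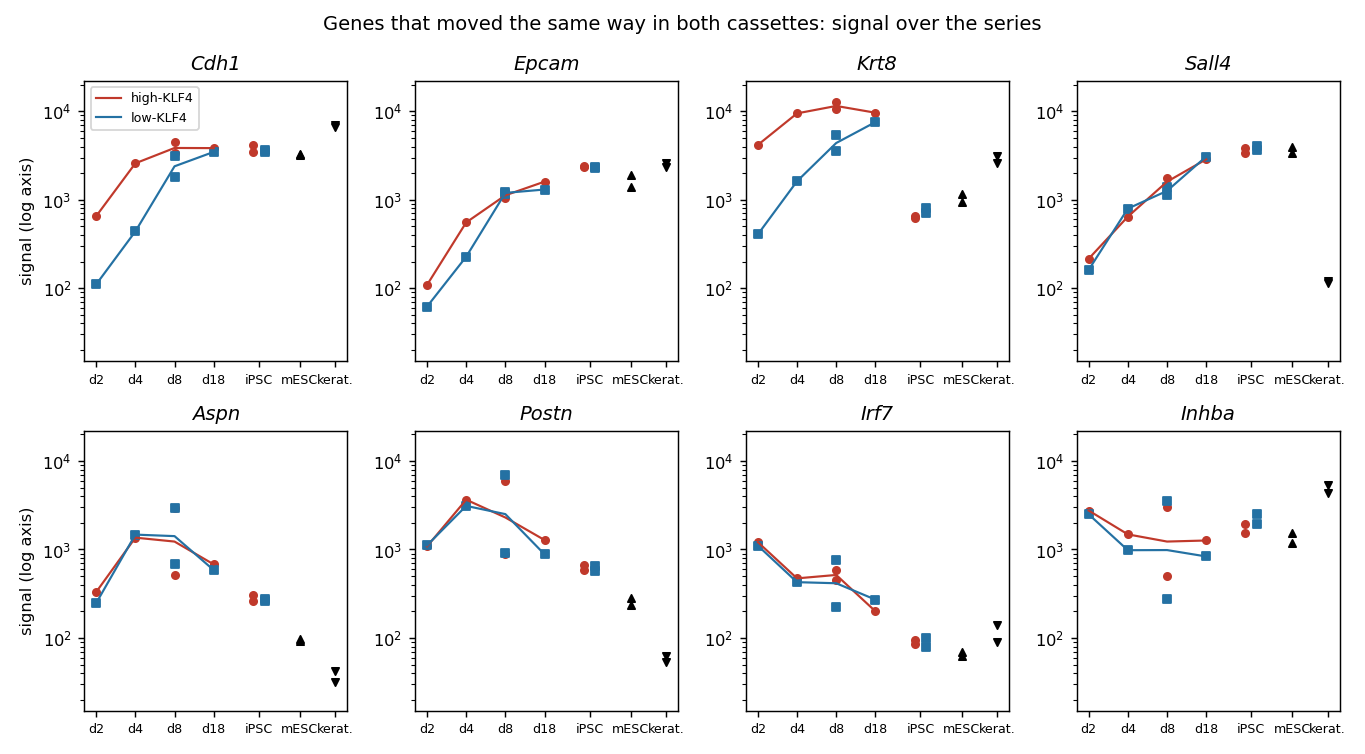
Signal (log axis) of 8 genes that moved the same way in both cassettes on days 2, 4, 8 and 18, in iPSC clones, mESCs and keratinocytes, with points for arrays and lines through the mean of log2 values on day 8. Cdh1, Epcam and Sall4 stay up after day 4 in the mCherry+ cells, and the day 8 pairs of Aspn, Postn and Inhba lie far apart.

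Among the genes with unlike changes, the gap between the cassettes on day 4 was not kept for each. Nanog reached 888 and 963 in high-KLF4 cells on day 8, against 2565 and 2464 in low-KLF4 cells, and on day 18 it had 2381 in high-KLF4 cells and 2557 in low-KLF4 cells. Apela had like levels from day 8 on, with 3873 and 3980 in high-KLF4 cells and 3245 and 4624 in low-KLF4 cells on day 8. Slc38a5 was lower in low-KLF4 cells on day 8, at 171 and 191, than on day 4, at 434. Cldn4 reached 3675 and 6992 in high-KLF4 cells and 995 and 3032 in low-KLF4 cells on day 8, so its rise in low-KLF4 cells came after day 4.

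**Figure D5:**
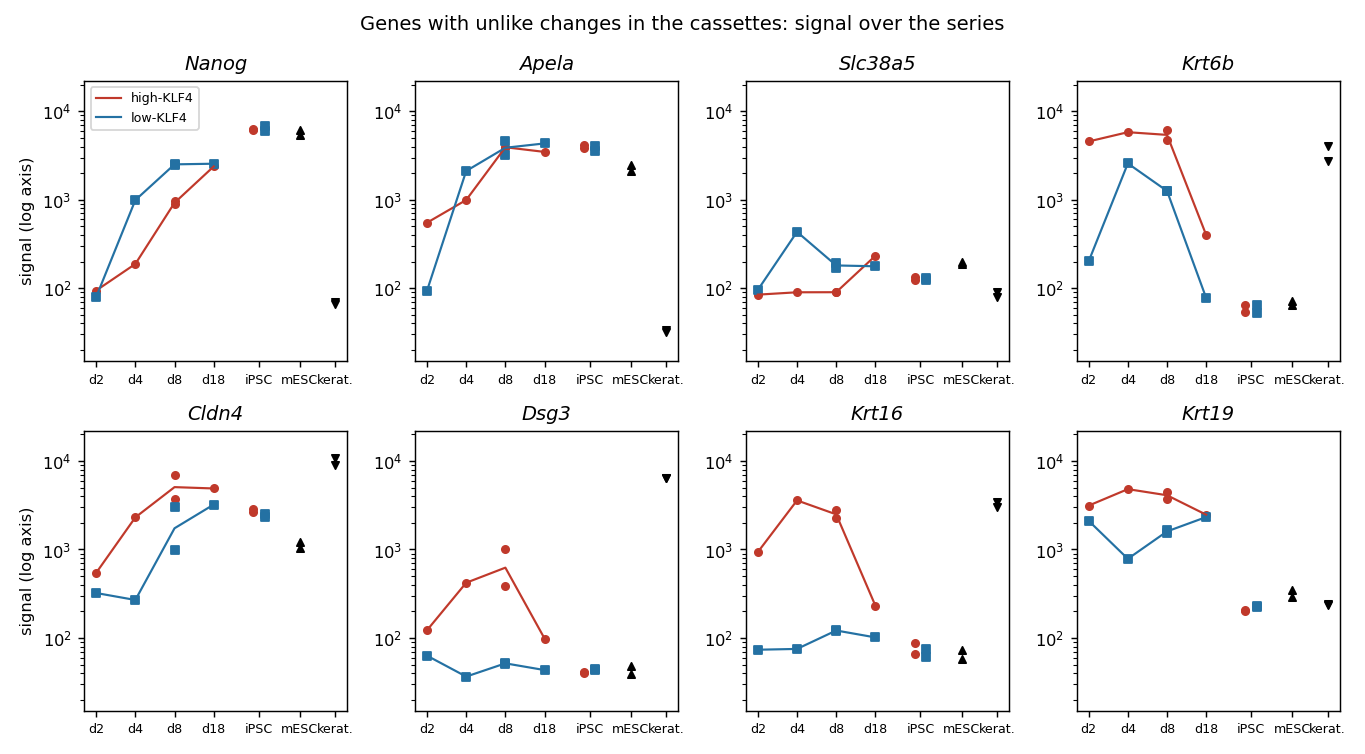
Signal (log axis) of 8 genes with unlike changes in the cassettes, drawn as for the shared genes. Nanog, Apela and Slc38a5 are the 3 genes whose changes between day 2 and day 4 differed by the test over 12 groups, and the other 5 did not pass it.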

How the data were processed

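RNA of the sorted cells had been hybridised to Affymetrix Mouse Gene 1.0 ST arrays. The signal intensities deposited by the authors are on a linear scale after RMA, which corrects background, quantile-normalizes and summarises probes. No detection call comes with them. RMA equalises the arrays, so a shift shared by most genes would not be seen. The probe annotation named 1 symbol for 21789 of 28853 probes, several for 1621 and none for 5443. The 23410 with a symbol were tested. Genes were named from probes with 1 symbol, apart from probes given as shared by several genes.

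Log2 was taken of each signal. The main fit (limma 3.58.1, R 4.3.3) compared 2 day 4 with 2 day 2 arrays with cassette as a block, with 1 residual and 5.01 prior degrees of freedom. A second fit over 18 arrays in 12 groups (6 residual and 2.25 prior degrees of freedom) tested the difference of the cassettes' changes, and groups of 1 array were assumed to vary like those of 2. Benjamini-Hochberg adjustment ran over all probes tested, at 0.05. A gene with several probes was read by the brightest. The labels name different clones within each iPSC group. According to the paper, the paired arrays of day 8 cells, mESCs and keratinocytes were independent experiments. Neither day 2 nor day 4 cells were repeated within a cassette. Variation between repeat cultures at those times was therefore not measured, and p-values may not reflect it.

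The 30 gene lists and the members were chosen with earlier results of these data known, and no list was tested. Named genes were the 10 largest rises and falls called without overlap, the 6 largest differences in each class of change in 1 cassette, in each list the 2 largest changes up and down, and genes the study names; any other gene was named with its values already seen. Alternatives were limma-trend, robust moderation, a second quantile normalization, a filter on the dimmest 30% of probes, no cassette block, other groups in the fit, other folds, only probes with 1 symbol, and leaving out each array. The fits were tested on simulated data. Promoter windows came from RefSeq on GRCm38.p6; counts and figures used Python 3.11.15, pandas 2.3.3, numpy 2.4.6 and matplotlib 3.10.9. Arrays of MEFs, day 6 cells and surface-marker sorts were not analysed here.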

Additional observations from a re-analysis of the deposited data

Results flagged for a closer look

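The changes of 3 genes differed between the cassettes by the test of the difference itself, high-KLF4 minus low-KLF4 on the log2 scale. The difference was -3.64 for Apela (SE 0.32, adjusted p = 0.0258), -2.64 for Nanog (SE 0.20, adjusted p = 0.0180) and -2.09 for Slc38a5 (SE 0.19, adjusted p = 0.0258) in limma over 12 groups. For each of them the day 4 array of low-KLF4 cells was the highest of the 4, and each rests on 1 array per cassette and day. In a fit of the 10 mCherry+ arrays alone none of the 3 passed (adjusted p = 1.00 for each). The differences themselves could not change in that fit, since they come from the same 4 arrays.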

How the results depend on the processing

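No call of a named or called gene changed sign after a second quantile normalization. The 12-group fit, limma-trend and the fit without the cassette block give the same mean change as the main fit. A change of sign was therefore not possible in them, and they differ only in the spread. The 136 probes higher and 113 lower on day 4 became 355 and 337 with limma-trend, 29 and 17 with the 12-group fit, and, in an alternative chosen after seeing the data, 476 and 288 with that fit without the day 8 arrays. With the cassette not fitted, 0 were higher and 0 lower in limma, with 1719 at an unadjusted p under 0.05. Leaving out each array in turn, in the 12-group fit, gave 7 to 59 higher and 9 to 40 lower; the lowest counts, 7 and 9, came without the low-KLF4 day 2 array. Lower probes then outnumbered higher ones, as they did without the high-KLF4 day 4 array (28 higher and 40 lower), and between 244 and 249 of the 249 calls kept their direction. Leaving out an array removed the pairing, since the arrays left for each day were averaged. The difference between the cassettes then entered the change between the days. At 1.5-fold, 213 probes were higher and 150 lower in both cassettes, and at 3-fold 11 and 4. Higher in high-KLF4 only were 24 without the day 8 arrays and 51 by size alone, against 0, and lower in high-KLF4 only 3 by size. Higher in low-KLF4 only were 24 without the day 8 arrays, 0 with the 10 mCherry+ arrays alone, 2 after a second quantile normalization, which put the change of Nanog in high-KLF4 cells at 1.06, and 54 by size, against 3, and lower in low-KLF4 only 4 without the day 8 arrays and 12 by size, against 0. The cause of these shifts was not tested. Of the changes of named or called genes, 203 no longer passed in the 12-group fit, 46 after a second quantile normalization and 221 without the block. No paired analysis by replicate number was possible because each cassette and day has 1 array; the pairing is by cassette. No depth applies to arrays, and 1 array per cassette and day limits the precision.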
